A study of Mus musculus with 29 samples.

Results

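The Id genes encode inhibitors of DNA binding, and the mouse has 4 of them, Id1, Id2, Id3 and Id4. They were followed here in C2C12 myoblasts that had received a mimic of 1 of 7 microRNAs. For each, the probe set was used that carries its symbol alone and has the highest mean over the 27 arrays of transfected cells. Each Id gene had 1 such probe set, so that 4 of the 19938 genes measured in this way make up the group. In GRCm38.p6 of the mouse genome, Id1 lies on chromosome 2 from 152736251 to 152737410 and Id2 on chromosome 12 from 25093799 to 25096092. Id3 lies on chromosome 4 from 136143822 to 136145392 and Id4 on chromosome 13 from 48261116 to 48266028.

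Id proteins have the helix-loop-helix domain through which such transcription factors pair, but lack the basic region that contacts DNA. They bind E proteins, which are the partners that MyoD and its relatives need to bind E-box sequences and switch on muscle genes, and so hold myoblasts in the undifferentiated state. Their genes are classical targets of bone morphogenetic proteins (BMPs), whose receptors phosphorylate Smad transcription factors, and Id levels are known to decline as myoblasts leave the cell cycle and form myotubes.

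C2C12 is a mouse myoblast line that can be kept proliferating or be made to fuse into multinucleate myotubes. Cells at passage 27 in medium with 10% fetal bovine serum were transfected for 36 h with 50 nM of a mimic of miR-145, Let-7b, miR-22, miR-365, miR-1, miR-34a or miR-29a, or with AllStar, a negative control oligonucleotide. Each mimic had 3 arrays, and the control had 3 arrays and 3 technical repeats, each averaged with the control array of the same number. Untransfected cells gave 1 array of proliferating myoblasts at 70% confluence and 1 array of terminally differentiated myotubes, for which no replicate exists. The design text speaks of 3 independent biological experiments, and transfection efficiency and the level reached by each mimic were not part of the data used here. Values are log2 expression, so that a difference of 1 is a factor of 2, and levels of different probe sets are not set against each other because probes differ in brightness.

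The mimics themselves are shown because every comparison turns on which of them the cells received. The labels do not state which arm of a microRNA hairpin a mimic copied, so the mature sequence given is the commonly studied arm, taken from RefSeq for GRCm38.p6, 5′ to 3′, with the seed (bases 2 to 8) in capitals. Sequences were at hand for 5 of the 7, and these 5 seeds all differ. The sequences of miR-1 and miR-145 are not printed.
miR-34a: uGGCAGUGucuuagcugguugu
miR-22: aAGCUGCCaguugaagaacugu
miR-365: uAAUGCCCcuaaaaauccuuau
miR-29a: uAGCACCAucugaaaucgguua
Let-7b: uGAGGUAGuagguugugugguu

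Promoter sequences are shown for Id2, Id3 and Id4, the Id genes with an entry in the RefSeq table. Whether they bear on the levels in the arrays was not tested. Each window is the 250 bases before the gene's start in GRCm38.p6, written 5′ to 3′ on the gene's strand. Capitals mark matches, on either strand, to the E-box CANNTG, the CCAAT box CCAAT, the TATA box TATAA and the Smad GC-rich element GGCGCC. The matches in these 3 windows do not overlap one another.
Id2, chr12:25096093-25096342, minus strand: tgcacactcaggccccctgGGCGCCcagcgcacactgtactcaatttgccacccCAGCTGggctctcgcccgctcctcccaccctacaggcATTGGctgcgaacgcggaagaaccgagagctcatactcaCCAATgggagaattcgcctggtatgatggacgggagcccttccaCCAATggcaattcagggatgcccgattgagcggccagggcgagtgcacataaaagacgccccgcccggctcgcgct
Id3, chr4:136143572-136143821, plus strand: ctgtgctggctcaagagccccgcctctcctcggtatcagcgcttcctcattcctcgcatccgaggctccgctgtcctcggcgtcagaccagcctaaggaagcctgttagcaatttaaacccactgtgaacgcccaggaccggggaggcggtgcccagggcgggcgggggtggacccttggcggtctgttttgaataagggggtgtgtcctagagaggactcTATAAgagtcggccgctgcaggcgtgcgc
Id4, chr13:48260866-48261115, plus strand: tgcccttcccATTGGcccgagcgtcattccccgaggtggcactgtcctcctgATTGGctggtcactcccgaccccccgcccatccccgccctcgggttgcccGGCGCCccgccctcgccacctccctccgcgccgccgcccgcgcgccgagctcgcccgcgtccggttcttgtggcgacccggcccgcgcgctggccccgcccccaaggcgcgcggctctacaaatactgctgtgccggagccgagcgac

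The Id2 window held 1 E-box, 3 CCAAT boxes and 1 match to GGCGCC. The Id3 window held 1 TATAA and none of the other 3 motifs. The Id4 window held 2 CCAAT boxes and 1 GGCGCC. Of 27025 promoter windows of the same length, 66.0% held CANNTG, 34.5% CCAAT, 23.5% TATAA and 9.54% GGCGCC. The windows of Id2 and Id3 had a GC content of 62.8% each and that of Id4 75.6%. A match is a description of letters and not a measured binding site.

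The 29 arrays had medians between 7.24 and 7.39. The myoblast markers, which include the desmin gene Des and the M-cadherin gene Cdh15, had a mean log2 expression between 11.64 and 12.03 in the transfected groups. The mean of marker lists of adipocytes, endothelial cells, macrophages and osteoblasts stayed between 5.81 and 6.74 in all groups, near the median of 6.68 of probe sets with no listed gene. The untransfected myoblast array had a mean of 11.95 over 24 muscle genes that E-boxes drive, against 10.64 in the control transfections and 12.73 in the myotube array. Its Myog level of 11.56 was close to the 11.68 of the myotube array. The array labelled as proliferating myoblasts therefore carried differentiation genes at levels above those of the control transfections.

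Id3 had the largest change of the group: it fell under miR-1 and, by less, under Let-7b, and did not pass against the control under the other 5 mimics. The control values were 11.24, 11.17 and 11.13, with a mean of 11.18 ± 0.05 (SD, n = 3). Under miR-1 the 3 values were 10.12, 10.49 and 9.80, with a mean of 10.14 ± 0.35. All 3 lay below every control value, and their spread was the widest of any group for this gene. Id3 fell by 1.05 ± 0.11 (SE) on the log2 scale under miR-1, which is 2.06-fold (limma, Benjamini-Hochberg adjusted p = 2.36e-07). Under miR-1, 10.5% of all genes fell and 13.2% rose by the same test. Without the lowest miR-1 value, replicate 3, the fall was still 0.88 with an adjusted p of 7.29e-07.

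Under Let-7b the Id3 values were 10.61, 10.75 and 10.83, with a mean of 10.73 ± 0.11. These 3 values also lay below all control values and, in turn, above all miR-1 values. The fall from the control was 0.45 ± 0.11 (SE), or 1.37-fold (adjusted p = 0.00732). Under Let-7b, 5.46% of all genes fell and 5.46% rose. Let-7b and miR-1 differed from each other by 0.59 in Id3 (adjusted p = 0.000197), a comparison in which 25.6% of genes passed.

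The other Id3 groups sat in a narrow band. Their means ran from 11.09 under miR-145 to 11.31 under miR-22. Differences from the control ranged from −0.09 for miR-145 to 0.13 for miR-22. The 95% interval of the miR-22 difference ran from −0.10 to 0.35 and that of miR-145 from −0.32 to 0.14, so changes of that size were not distinguished from 0. The order of the 8 group means was miR-22, miR-34a, miR-29a, control, miR-365, miR-145, Let-7b and miR-1. Of the 7 neighbours in this order, miR-145 and Let-7b differed by 0.36 (adjusted p = 0.0241, in a comparison that 16.1% of genes passed), as did Let-7b and miR-1, and the first 6 groups had no neighbours that passed.

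Id2, which besides E proteins is known to bind the retinoblastoma protein, changed under 5 of 7 mimics, more than any other Id gene. It fell under miR-1, miR-145, miR-29a and Let-7b and rose under miR-365. Over all genes, 2.66% were called under at least 5 mimics. The 7 comparisons share the same control values, which were 12.68, 12.61 and 12.55 for Id2, so the counts of calls are not independent of each other.

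Under miR-1 the Id2 values were 12.06, 12.04 and 11.88, all below every control value. Id2 fell by 0.62 ± 0.08 (SE), or 1.54-fold (adjusted p = 2.2e-06). Under miR-29a the values of 12.15, 12.18 and 12.17 lay close together and all below the control. The fall was 0.44 ± 0.08, or 1.36-fold (adjusted p = 0.000416), where 4.78% of all genes fell and 5.54% rose.

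Under miR-145 the Id2 values were 12.23, 12.27 and 11.92, of which the third was the lowest and all were below the control. Id2 fell by 0.47 ± 0.08, or 1.39-fold (adjusted p = 0.00041), where 3.00% of all genes fell and 3.85% rose. The miR-145 arrays also carried interferon response genes at raised levels. The mean over 12 such genes was 7.85, 7.50 and 10.79 in replicates 1, 2 and 3, against 6.56 to 6.69 in the controls, and 8 of the 12 rose. Replicate 3 was thus the highest for interferon genes and the lowest for Id2. Without it the fall of Id2 was 0.36 (adjusted p = 0.00355). The part of the interferon response in the Id2 value was not tested.

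Under Let-7b the Id2 values were 12.19, 12.37 and 12.20, all below the control, and the fall was 0.36 ± 0.08, or 1.28-fold (adjusted p = 0.00283). Under miR-365 the Id2 values were 12.89, 12.82 and 12.88, all above the control. The rise of 0.25 ± 0.08, or 1.19-fold, had an adjusted p of 0.0233, where 11.7% of all genes rose and 8.33% fell. This is the least stable of the Id2 calls: without miR-365 replicate 1 or replicate 3 the rise was 0.24 in each case, with adjusted p of 0.0736 and 0.0779. Without control replicate 2 it was 0.25 (adjusted p = 0.0615), and without control replicate 3 it was 0.22 (adjusted p = 0.107).

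Under miR-34a and miR-22 Id2 differed from the control by 0.08 and −0.07, with 95% intervals from −0.08 to 0.24 and from −0.23 to 0.09. The order of Id2 means was miR-365, miR-34a, control, miR-22, Let-7b, miR-29a, miR-145 and miR-1. The only neighbours in it that passed were miR-22 and Let-7b, 0.29 apart (adjusted p = 0.0105, in a comparison that 17.5% of genes passed). Groups further apart in the order could still differ, as Id2 did between miR-22 and miR-365 (−0.32, adjusted p = 0.00348) and between miR-1 and Let-7b (−0.26, adjusted p = 0.0143).

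**Figure D1:**
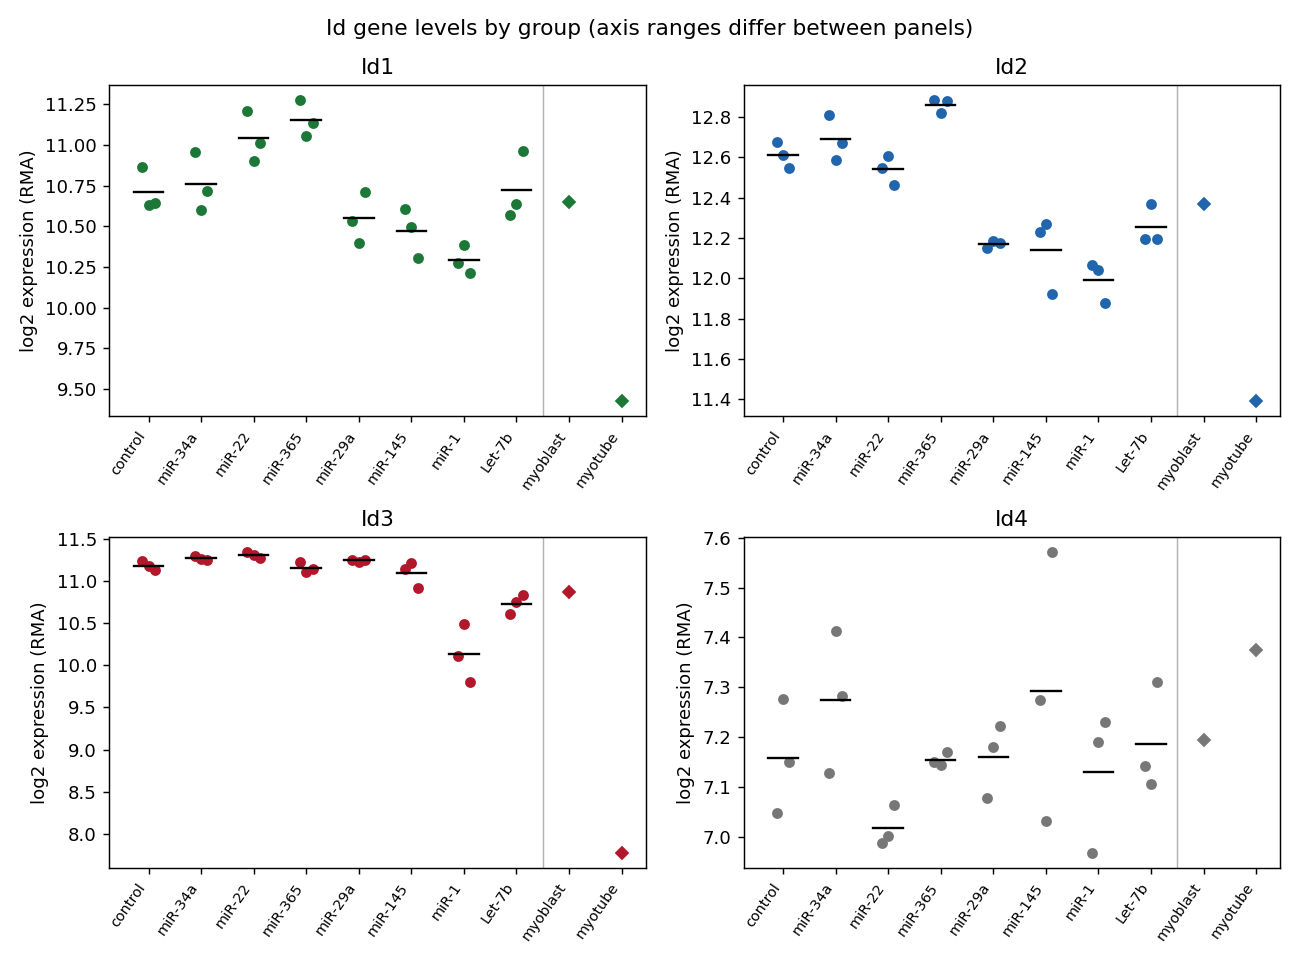
Log2 expression of Id1, Id2, Id3 and Id4 in each group (vertical axes, with different ranges). Points are the 3 values of a transfected group, bars their mean, and diamonds the single myoblast and myotube arrays. Id3 is low under miR-1 and Let-7b, Id2 is low under 4 mimics, and the Id4 points of every mimic overlap those of the control.

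Id1 changed under 2 mimics, in opposite directions. The control values were 10.87, 10.63 and 10.64 (mean 10.71 ± 0.13 SD, n = 3). Under miR-365 the values were 11.28, 11.05 and 11.13, all above the control, and Id1 rose by 0.44 ± 0.11 (SE), or 1.36-fold (adjusted p = 0.00712). Under miR-1 they were 10.28, 10.38 and 10.21, all below the control. Id1 fell by 0.42 ± 0.11 under miR-1, or 1.34-fold (adjusted p = 0.00814). Control replicate 1 was the highest of the 3 controls, and without it the fall was 0.35 (adjusted p = 0.0554).

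Under miR-22 the Id1 values of 11.21, 10.90 and 11.01 also lay above all 3 controls. The difference of 0.33 ± 0.11, or 1.25-fold, had an adjusted p of 0.06, where 8.82% of all genes rose and 5.67% fell. Samples with the same replicate number tended to deviate together, and with the replicate number as a block the same difference had an adjusted p of 0.0246. It also passed without control replicate 1 (0.40, adjusted p = 0.0378) and without miR-22 replicate 2 (0.40, adjusted p = 0.0413).

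For Id1 the values under miR-145, 10.61, 10.50 and 10.31, lay below all controls, yet the difference of −0.24 had an adjusted p of 0.251. The other 3 differences were −0.16 under miR-29a, 0.05 under miR-34a and 0.01 under Let-7b, with 95% intervals that reached no further than −0.40 and 0.28. The Let-7b group thus had Id1 at the control level in the same arrays in which Id2 and Id3 fell. The order of Id1 means was miR-365, miR-22, miR-34a, Let-7b, control, miR-29a, miR-145 and miR-1, and no neighbours in it passed the test.

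Id4, the member of the family least tied to muscle, changed under none of the mimics by limma's test, and the lowest of its 7 unadjusted p values was 0.204. Its level was 7.16 ± 0.11 (SD, n = 3) in the control, with values of 7.05, 7.28 and 7.15. Group means ran from 7.02 under miR-22 to 7.29 under miR-145, and the values of every mimic overlapped those of the control. The widest 95% bounds of its 7 differences were −0.36 under miR-22 and 0.36 under miR-145. The Id4 probe set lay below the median of 7.83 of all genes and not far above the 6.68 of probe sets with no listed gene, and the highest miR-145 value, 7.57, was in replicate 3. Whether Id4 RNA was present was not settled by these values.

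Values that did not overlap the control were found for 3 of the 4 Id genes under miR-1 (34.3% of all genes), for 2 under miR-365 (34.3%), miR-22 (30.8%), Let-7b (27.6%) and miR-145 (23.6%), and for 1 under miR-29a (26.0%) and miR-34a (28.5%). The gene under miR-34a was Id3, with values of 11.30, 11.26 and 11.24 and a difference of only 0.08 (adjusted p = 0.806). Under miR-34a, 5.62% of all genes rose and 6.06% fell, and no Id gene did.

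**Figure D2:**
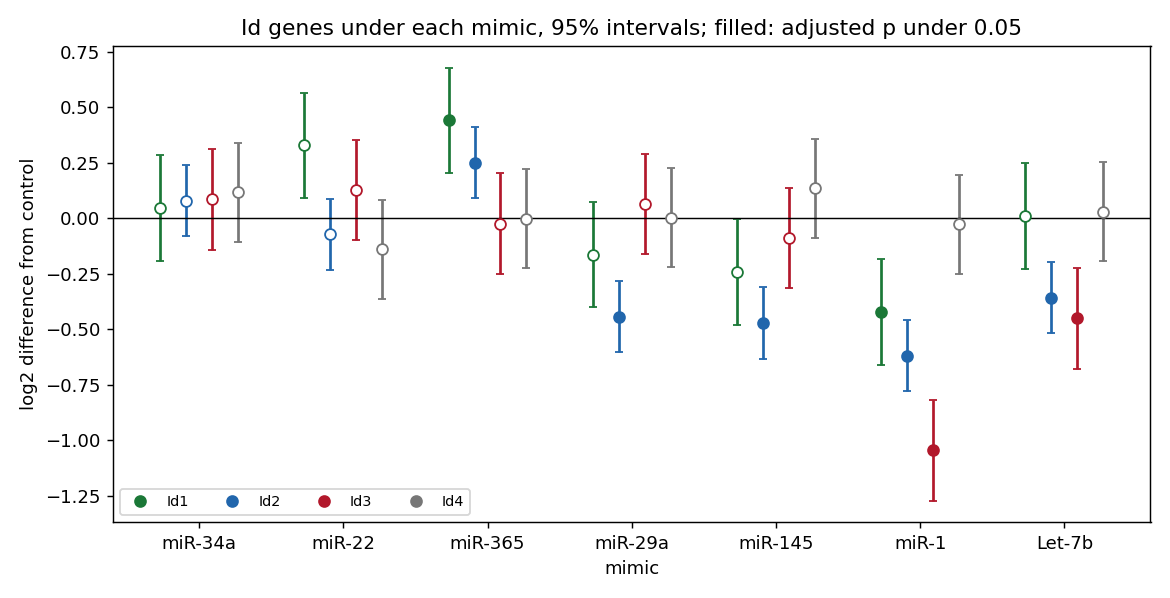
Log2 difference of each Id gene from the control (vertical axis) under each mimic (horizontal axis). Points are estimates from the fit over all genes, bars their 95% intervals, and filled points have an adjusted p under 0.05. The miR-1 mimic has 3 filled points below 0, and miR-365 has 2 above 0.

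A test over all 7 comparisons together was passed by Id1 (adjusted p = 1.44e-05), Id2 (1.39e-08) and Id3 (5.29e-08) and not by Id4 (0.436); 49.4% of all genes passed it. The highest and lowest group means were 1.82-fold apart for Id1, 1.83-fold for Id2, 2.25-fold for Id3 and 1.21-fold for Id4. Of the 28 pairs of groups, 12 differed for Id1, 19 for Id2, 13 for Id3 and 0 for Id4. In the pairs of Let-7b with miR-22, miR-145 and miR-1, 17.5%, 16.1% and 25.6% of all genes differed. How many of all genes differed in as many pairs was not counted, and pairs that share a group are not independent.

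A comparison of each mimic with the mean of the other 6 uses no control array. Its baseline includes mimics under which Id genes fell, so a higher value in it need not be a rise from the control. In it miR-1 was lower for Id1 at −0.49 (adjusted p = 0.000125), for Id2 at −0.45 (3.09e-06) and for Id3 at −0.997 (7.48e-09), with 13.7% of all genes lower. The miR-365 mimic was higher for Id1 by 0.52 (8.68e-05) and for Id2 by 0.56 (1.54e-07), with 15.8% of all genes higher. The miR-22 mimic was higher for Id1 by 0.38, Id2 by 0.19 and Id3 by 0.37 (9.45% of genes higher), all of which passed.

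The other mimics split between the genes. The miR-34a mimic was higher for Id2 by 0.36 and for Id3 by 0.32 (5.90% of genes higher). The Id3 baseline in that comparison was 10.95, against 11.18 in the control, because it holds miR-1 and Let-7b. Against the control, Id3 differed by only 0.08 under miR-34a, 0.13 under miR-22 and 0.06 under miR-29a. Id2 differed from the control by 0.08 under miR-34a and −0.07 under miR-22, and none of these differences passed. The miR-29a mimic was lower for Id2 at −0.24 and higher for Id3 at 0.30 (17.1% of genes passed in either direction), and the miR-145 mimic lower for Id1 and for Id2 at −0.28 each (8.59% lower). The Let-7b mimic was lower for Id3 at −0.30 and not called for Id2 at −0.15 (10.3% lower). Against this baseline Id4 differed under no mimic.

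In untransfected cells Id1, Id2 and Id3 were lower in myotubes than in myoblasts, with 1 array on each side and so no test. Id3 was 10.87 in myoblasts and 7.78 in myotubes, a difference of −3.09 or 8.53-fold. Only 0.0201% of all genes had a lower difference. Id1 went from 10.65 to 9.43, a difference of −1.23 or 2.34-fold, and Id2 from 12.37 to 11.39, a difference of −0.98 or 1.97-fold. Id4 was 7.19 and 7.37. The median difference over all genes was −0.02.

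Against the myoblast array the control transfections had similar Id1 (a difference of 0.06) and Id4 (−0.04), and somewhat higher Id2 (0.24) and Id3 (0.31). The lowest Id3 value of any transfected group, 9.80 in miR-1 replicate 3, stayed above the 7.78 of the myotube array. Likewise the lowest Id2 value, 11.88, stayed above 11.39, and the lowest Id1 value, 10.21, above 9.43. No transfected array thus reached the myotube level of any of these 3 genes.

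Over the 24 values of the transfected groups, Id1 and Id2 had a Pearson correlation of 0.80, Id2 and Id3 of 0.62 and Id1 and Id3 of 0.59. Correlations of Id4 with the others lay between −0.28 and −0.04. Among 10558 genes whose highest group mean exceeded the overall median, Rnf138, which encodes a ubiquitin ligase, was most like Id1 (0.88) and also among the 5 most like Id2 (0.87). It was followed for Id1 by Lxn, Homer3, Tmeff1 and 4933427D14Rik (0.87 to 0.85).

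The genes most like Id2 were Ttyh3, of the tweety family of membrane proteins (0.90), Carnmt1, a carnosine methyltransferase (0.89), and the ETS factor gene Elf4 (0.88), before Rnf138 and Prkra (0.86). Those most like Id3 were Arhgap35 (0.92), the mitochondrial citrate carrier gene Slc25a1 (0.91), Rgs19 (0.91), the actin regulator gene Cap1 (0.91) and Fam216a (0.90). For Id4 they were Gm9922, Mir326, Trav13-5, Ttc9b and 4930527J03Rik, at 0.82 to 0.78. These are the highest of many correlations over values that share controls and mimics.

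The likeness did not extend to every condition. These genes were picked by their correlation over the same transfected groups, so nearness under the mimics follows from that choice. The myoblast and myotube arrays had no part in it. Slc25a1 differed from the control by −1.28 under miR-1, close to the Id3 value, but by −0.05 under Let-7b and by −0.21 between myotube and myoblast. Ttyh3 had −0.57 under miR-1, −0.51 under miR-29a, −0.44 under miR-145 and −0.41 under Let-7b, each near the Id2 value, and −1.24 in the myotube array. Under miR-365, where Id2 rose, Ttyh3 differed by 0.01.

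The direct partners of Id proteins moved little. Of the 3 E protein genes, Tcf3, which encodes E12 and E47, fell under miR-1 by 0.29 ± 0.08 (adjusted p = 0.00649), the same mimic under which Id1, Id2 and Id3 fell. Tcf12 passed under no mimic, and Tcf4 rose under miR-22 by 0.35 (adjusted p = 0.0227). That call was lost without control replicate 1 or 3, without miR-22 replicate 2 or 3, and with arrays centred on their median, with a rise of at least 0.28 and an adjusted p of at most 0.117. Tcf3 was also lower in the myotube array, by −0.61.

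Of the 4 myogenic factors of the same protein class, Myf5 fell under miR-1 by 0.43 (adjusted p = 0.00278), and Myog, which encodes myogenin, rose 2.14-fold under miR-1 (adjusted p = 0.00484). Myf5 was also called lower under miR-34a and Let-7b, calls lost in 5 and 6 of 15 alternative settings. Myog also rose under miR-34a by 1.12 (adjusted p = 0.00871), a call lost without control replicate 3 or miR-34a replicate 2, with a value of at least 0.95 and an adjusted p of at most 0.0622. Myod1 rose under miR-34a by 0.54 and fell under Let-7b by 0.55. The first call was lost without control replicate 3 (0.45, adjusted p = 0.0731), and the second without control replicate 2 or Let-7b replicate 3, where the adjusted p rose to at most 0.0649. Under miR-1 Myod1 differed by −0.03.

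Muscle genes driven through E-boxes, the targets that Id proteins hold back, were higher under several mimics, and not in the order of the Id levels. Of 24 such genes, 16 rose and 0 fell under miR-1 (13.2% and 10.5% of all genes). Their median difference under miR-1 was 0.55 against a median of all genes of 0.00. Under miR-34a, where no Id gene was called, 11 rose and 0 fell (median 0.52), against 5.62% and 6.06% of all genes. Under miR-22, 10 rose and 1 fell (median 0.45), against 8.82% and 5.67% of all genes. Under Let-7b, where Id2 and Id3 fell, 0 rose and 3 fell (median −0.29), against 5.46% of all genes in each direction.

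The remaining counts were 4 up and 1 down under miR-29a, 2 up and 3 down under miR-365 and 1 up under miR-145. Over all genes, 5.54% rose and 4.78% fell under miR-29a. The shares were 11.7% and 8.33% under miR-365, and 3.85% and 3.00% under miR-145. These shares belong to the fit with every replicate and no block, and shares for the counts that follow are not given. Over all genes, the block raised the number of calls under miR-29a. Leaving out replicates lowered it under miR-34a, miR-22 and miR-29a. With the replicate number as a block, 16 of the muscle genes rose under miR-22, 5 under miR-365 and 9 under miR-29a. Without control replicate 3 the number that rose was 9 under miR-1, 6 under miR-34a, 4 under miR-22 and 2 under miR-29a. Leaving out replicate 2 or 3 of the mimic gave 10 under miR-1 in either case, and leaving out miR-22 replicate 3 gave 4 under that mimic. Further single arrays lowered these counts by over 1.5 times: miR-34a replicate 1 (to 7), each of control replicate 1, miR-22 replicate 1 and miR-22 replicate 2 for miR-22 (to 6), miR-29a replicates 2 and 3 (to 2), and any array left out for miR-365 (to 1).

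Single muscle genes differed in the mimics under which they changed. Ckm, the muscle creatine kinase gene, rose by 1.12 under miR-1 (adjusted p = 0.000164) and by 0.93 under miR-22 (0.00218). It also rose by 0.93 under miR-145 (0.0051), a call lost with only the 2 groups in the model (0.0605). Under miR-34a Ckm rose by 0.71 (0.0214). That call was lost without control replicate 3 or miR-34a replicate 1 or 2, where the adjusted p was at most 0.106. The cardiac actin gene Actc1 rose by 1.00 under miR-34a (0.000143) and fell by 1.13 under Let-7b (3.91e-05). Chrnd, a subunit gene of the acetylcholine receptor, rose under miR-1 (0.55), miR-22 (0.69) and miR-34a (0.58). It fell under miR-365 by 0.36 (adjusted p = 0.0174), a call lost without control replicate 2 or miR-365 replicate 1 (adjusted p at most 0.128). Tnnt1, the slow troponin T gene, rose under 4 mimics, among them miR-29a (0.84), miR-34a (0.74) and miR-1 (0.60). It fell under Let-7b by 0.62 (adjusted p = 0.0084). That call was lost without control replicate 2 or Let-7b replicate 1, where the decrease was at least 0.38 and the adjusted p at most 0.0729.

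**Figure D3:**
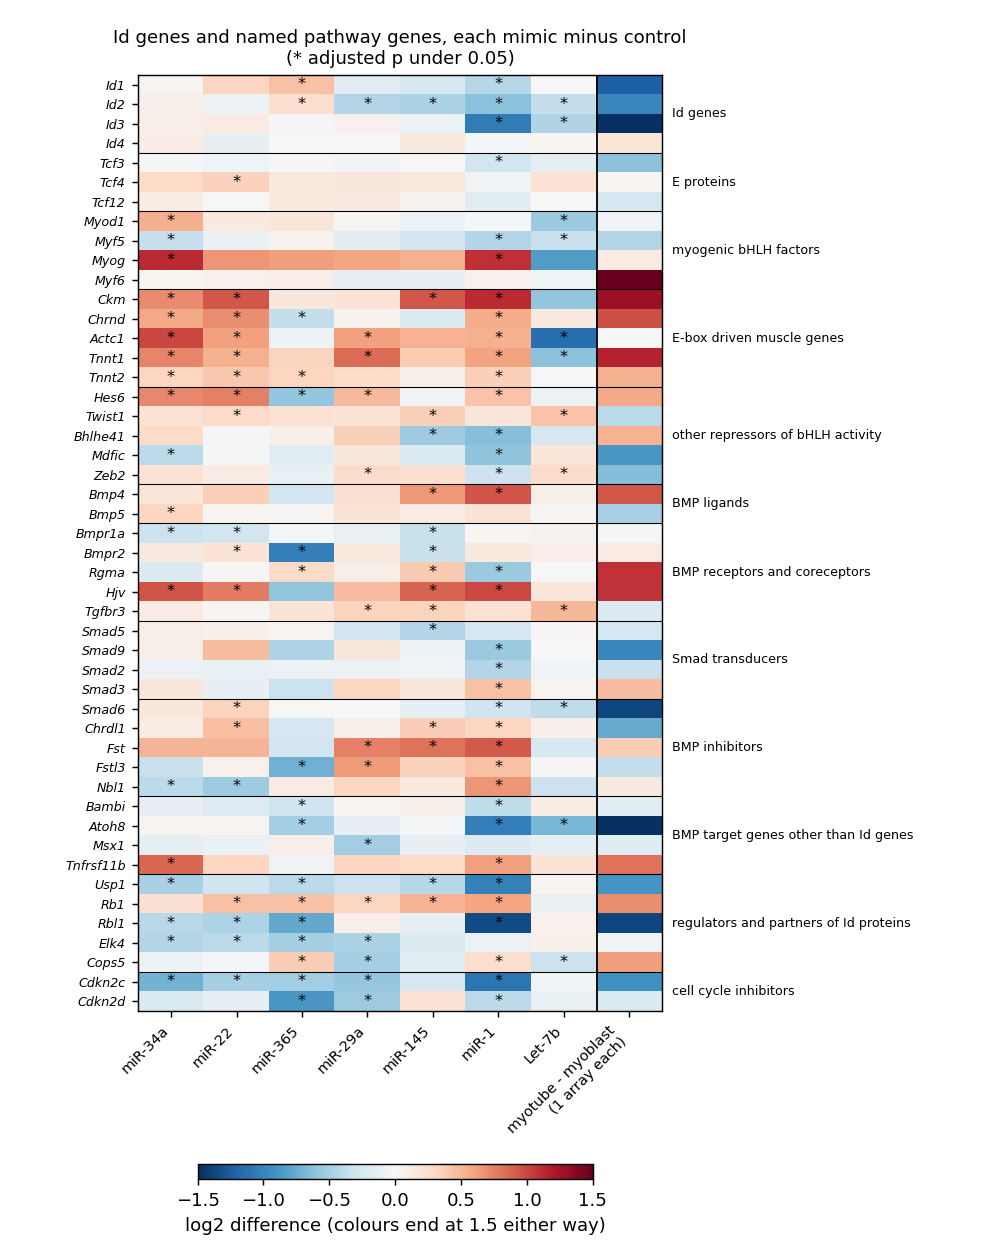
Log2 difference from the control (colour) of the Id genes and of named genes of their pathways (rows, grouped by role) under each mimic (columns), with myotube minus myoblast in the last column. Asterisks mark an adjusted p under 0.05. Atoh8 falls under miR-1, Let-7b and miR-365. Smad6 falls under miR-1 and Let-7b and rises under miR-22. Actc1 rises under miR-34a and falls under Let-7b.

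Of 18 other genes listed as repressors of E-box activity, 2 rose and 6 fell under miR-1 (13.2% and 10.5% of all genes). Under each other mimic at most 2 rose and at most 2 fell. Over all genes, 3.85% to 11.7% rose and 3.00% to 8.33% fell under those mimics. Mdfic, which encodes a binder of myogenic factors, fell under miR-1 by 0.60 (adjusted p = 0.000254), and Bhlhe41 fell by 0.64 (adjusted p = 0.00166). Hes6, which is in this list although its product is known to counter the repressor Hes1, was 1 of the 2 that rose under miR-1 (0.42, adjusted p = 0.0227). That call was lost with a further quantile normalization and without control replicate 1 or miR-1 replicate 2, where the rise was at least 0.29 and the adjusted p at most 0.142. Hes6 also rose under miR-34a (0.72) and miR-22 (0.75) and fell under miR-365 by 0.58 (adjusted p = 0.0027). Twist1 rose under Let-7b by 0.43 (adjusted p = 0.00167).

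Upstream in the BMP pathway, few ligand genes were called. Their mean in the control was 6.75, near the 6.68 of probe sets with no listed gene. A missing call therefore says little about dim ligand genes. Of 11 ligand genes, Bmp4 rose under miR-1 by 0.94 ± 0.15 (adjusted p = 6.22e-05), the mimic with the lowest Id1, Id2 and Id3. It also rose under miR-145 by 0.65 (adjusted p = 0.0115), a call lost without control replicate 1 (0.51, adjusted p = 0.081). No ligand gene fell under any mimic, where 3.00% (miR-145) to 10.5% (miR-1) of all genes fell. Among 11 genes such shares come to few or none per mimic.

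Of 12 receptor and coreceptor genes, Bmpr2, the type II BMP receptor, had the largest decrease: it fell by 1.03 ± 0.06, or 2.04-fold, under miR-365 (adjusted p = 3.57e-11). Id1 and Id2 rose under that mimic. Bmpr2 also fell under miR-145 by 0.33 (adjusted p = 0.000957). The type I receptor gene Bmpr1a fell under miR-34a by 0.32 and under miR-145 by 0.33. The coreceptor gene Hjv rose under miR-1 (0.99) and miR-34a (0.95), and Rgma, of the same family, fell under miR-1 by 0.56 (adjusted p = 0.000121). Under miR-22 Bmpr1a was also called lower, and Bmpr2 and Hjv higher. Hjv was called higher under miR-145 too, and Rgma under miR-145 and miR-365. Each of these further calls was lost in at least 1 of 15 alternative settings.

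Of the 6 Smad genes, 1 rose and 2 fell under miR-1, where 13.2% of all genes rose and 10.5% fell. Smad2 fell by 0.44 (adjusted p = 0.00118), and Smad3 rose by 0.44 (adjusted p = 0.0215). The Smad3 call was lost with a further quantile normalization and without control replicate 1, control replicate 3 or miR-1 replicate 2, where the rise was at least 0.32 and the adjusted p at most 0.124. Smad9 fell under miR-1 by 0.56 (adjusted p = 0.0176), a call lost without control replicate 1 or miR-1 replicate 3, with a decrease of at least 0.45 and an adjusted p of at most 0.0983. Smad5 fell under miR-145 by 0.44, which without miR-145 replicate 3 was −0.28 (adjusted p = 0.106). Smad1 and Smad4, the latter shared by all branches of the pathway, passed under no mimic.

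Of 17 measured inhibitors of BMP signalling, 6 rose and 4 fell under miR-1, against 13.2% and 10.5% of all genes. The largest change was in Twsg1, which encodes the secreted BMP binder twisted gastrulation and fell by 1.02 (adjusted p = 1.4e-07). Smurf2, a ubiquitin ligase gene, fell by 0.57 (adjusted p = 1.96e-06). Both are named because of their values. Fst, which encodes follistatin, rose by 0.92 (adjusted p = 0.000433), Nbl1 by 0.66 (0.000427) and Fstl3 by 0.44 (0.0083). Fstl3 rose under miR-29a as well (0.64) and fell under miR-365 by 0.72 (adjusted p = 0.000115). Under Let-7b, 1 inhibitor gene rose and 1 fell, against 5.46% of all genes in each direction.

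Other target genes of BMP signalling, some of which are also among the inhibitors or the Smad genes, were set beside the Id genes. Of 18 measured, 2 rose and 5 fell under miR-1, 0 rose and 2 fell under Let-7b, and 1 rose and 3 fell under miR-365. Over all genes, 13.2% rose and 10.5% fell under miR-1, 5.46% rose and 5.46% fell under Let-7b, and 11.7% rose and 8.33% fell under miR-365. Atoh8, a BMP target that encodes a further basic helix-loop-helix factor, fell under miR-1 by 1.03 ± 0.15 (adjusted p = 1.71e-05) and under Let-7b by 0.69 ± 0.15 (adjusted p = 0.00346), and was lower in the myotube array by −2.60.

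Under miR-365, where Id1 and Id2 rose and Id3 differed by −0.03, Atoh8 fell by 0.51 (adjusted p = 0.0169). That call was lost without control replicate 1 or miR-365 replicate 3, where the decrease was at least 0.41 and the adjusted p at most 0.114. Smad6, an inhibitory Smad that is itself a BMP target, fell under Let-7b by 0.38 (adjusted p = 0.0139), a call lost without control replicate 1 or Let-7b replicate 1, where the decrease was at least 0.31 and the adjusted p at most 0.0868. Under miR-22 Smad6 was called higher, a call lost in 6 of 15 alternative settings. Smad6 also fell under miR-1 by 0.30 (adjusted p = 0.0309), and was lower in the myotube array at −1.38. The miR-1 call was lost with only the 2 groups in the model and without control replicate 1 or 2 or miR-1 replicate 1 or 3, where the decrease was at least 0.23 and the adjusted p at most 0.157. Bambi, a decoy receptor, fell under miR-1 by 0.38 (adjusted p = 0.00175). Msx1 fell under miR-29a by 0.52 and Tnfrsf11b, the osteoprotegerin gene, rose under miR-34a by 0.86.

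Among 23 regulators and partners of Id proteins, 4 rose and 5 fell under miR-1, where 13.2% of all genes rose and 10.5% fell. Usp1, whose product removes ubiquitin from Id proteins and so stabilises them, fell under miR-1 by 1.01 ± 0.11 (adjusted p = 5.61e-07) and under miR-34a by 0.49 (adjusted p = 0.00513). It also fell under miR-365, where Id1 and Id2 rose, by 0.40 (adjusted p = 0.0123), a call lost without miR-365 replicate 3 (a decrease of at least 0.36, adjusted p = 0.0635), and under miR-145 by 0.43 (adjusted p = 0.0217). The miR-145 call was lost with only the 2 groups in the model and without any 1 control replicate or miR-145 replicate 3, where the decrease was at least 0.29 and the adjusted p at most 0.179. Rb1, the retinoblastoma gene, whose protein Id2 can bind, rose under miR-1 (0.59), miR-145 (0.52), miR-22 (0.44) and miR-365 (0.44). Its relative Rbl1 fell under miR-1 by 1.35 (adjusted p = 4.65e-08) and under miR-365 by 0.77. Elk4, an ETS factor gene, fell under miR-365, miR-29a, miR-34a and miR-22 by 0.50, 0.47, 0.44 and 0.40.

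Of 6 measured cell cycle inhibitors, which Id1 is known to repress in part, none rose under any mimic. Over all genes, the share that rose ran from 3.85% under miR-145 to 13.2% under miR-1. Among 6 genes such shares come to few or none, so the lack of rises says little. Under miR-1, miR-365 and miR-29a, 2 fell each, against 10.5%, 8.33% and 4.78% of all genes. Under miR-34a and miR-22, 1 fell each, against 6.06% and 5.67% of all genes. None fell under miR-145 and Let-7b, against 3.00% and 5.46%. Cdkn1a was not among the measured genes, and Cdkn1b, Cdkn1c, Cdkn2a and Cdkn2b passed under no mimic. Cdkn2c fell under miR-1 by 1.09 (adjusted p = 9.04e-07), miR-34a by 0.71, miR-29a by 0.58 and miR-365 by 0.52. It also fell under miR-22 by 0.50 (adjusted p = 0.00863), a call lost without miR-22 replicate 3 (adjusted p = 0.0798). Cdkn2d fell under miR-365 by 0.87 (adjusted p = 8.99e-05).

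Genes of DNA replication moved with some of the Id changes and not with others. Of 14 such genes, 13 fell under miR-1, 12 under miR-365, 10 under miR-34a, 9 under miR-22 and 1 under miR-145. The miR-29a and Let-7b mimics, with medians of −0.13 each, gave no call. Over all genes, 10.5% fell under miR-1, 8.33% under miR-365, 6.06% under miR-34a and 5.67% under miR-22. The shares were 3.00% under miR-145, 4.78% under miR-29a and 5.46% under Let-7b. Their mean log2 expression was 11.45 to 11.49 in the controls, 10.14 to 10.70 under miR-1 and 10.84 to 11.11 under miR-365. Both mimics thus had low replication genes, while Id1 and Id2 were low under the first and high under the second. Without miR-22 replicate 3 the count under miR-22 was 5, without control replicate 3 it was 6, and without miR-365 replicate 3 the count under miR-365 was 8. Shares of all genes in these smaller fits are not given. Replicate 3 of miR-1 had both the lowest replication genes (10.14) and the lowest Id3 (9.80). The part of proliferation in the Id values was not tested, and in bulk RNA fewer cells that express a gene and less RNA per cell cannot be told apart.

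**Figure D4:**
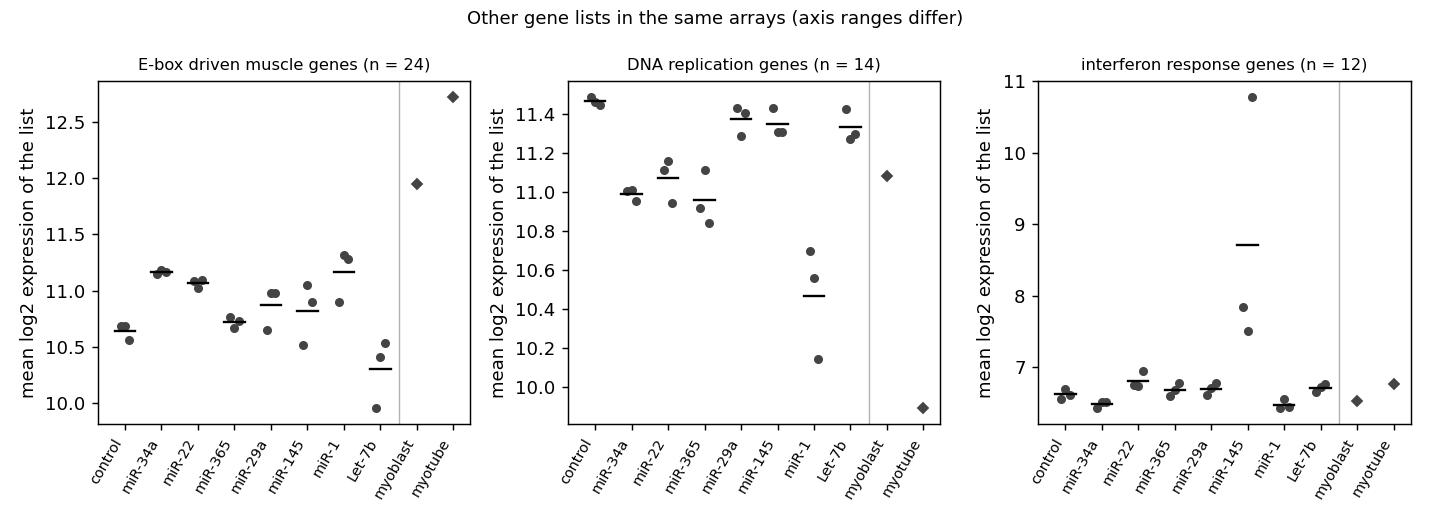
Mean log2 expression (vertical axes, with different ranges) of E-box driven muscle genes, DNA replication genes and interferon response genes in each group. Points are the 3 values of a transfected group, bars their mean, diamonds the single myoblast and myotube arrays. Replication genes are lowest under miR-1 among the mimics, and interferon genes are high under miR-145, most of all in replicate 3 at 10.79.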

How the data were processed

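RNA of C2C12 cells was measured on 29 Affymetrix arrays. The deposited values are log2 expression, made by the authors with RMA in Affymetrix Expression Console 1.1, per the submitters' processing notes; filters and a genome build are not given in the sources used here. RMA equalises the distributions of arrays, so a shift of all genes together would not be seen.

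Of 35556 probe sets, 21789 carried 1 symbol, which gave 19938 genes, each represented by its probe set with the highest mean. Symbols of 21698 probe sets were checked through Entrez identifiers and 0 changed. Coordinates and sequences come from RefSeq tables for GRCm38.p6. With limma 3.58.1 in R 4.3.3, all genes were modelled over 24 values and 8 groups, with a variance trend, no filter and 2-sided tests, adjusted by Benjamini-Hochberg within each comparison at a threshold of 0.05. Control arrays correlated with their technical repeats at 0.998 across genes and were averaged with them. The number of arrays limits the precision, and p values rest on the spread of the 24 values around their group means. Named are the Id genes, E protein and myogenic factor genes, up to 5 members of each other list called under the most mimics, and the 5 genes most like each Id gene; those whose calls depend on many settings are given in counts only. The Id genes and gene lists were chosen with earlier results of these data known.

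Whether replicate numbers pair the arrays was checked on residuals: 23 of 24 were most like another of the same number, with r over 0.1 in 75 of 84 pairs. Every pair with the control passed 0.1 for miR-22, miR-29a, miR-34a and miR-365, so their blocked results are given where they change a call. In simulated data for the miR-1 comparison over 19938 genes, 71% of planted changes of 0.5 and 100% of those of 1 were recovered, with 9 unchanged genes called. Only 100 genes were changed by each amount, against 2626 that rose and 2096 that fell in the data. The simulated samples were also drawn independently, without the shared deviation by replicate number. These figures therefore describe the simulated setting and not the real comparison.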

Additional observations from a re-analysis of the deposited data

How the results depend on the processing

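Of 9 Id calls, 7 kept their direction and their side of the threshold in all 15 alternatives, as did 18 of 19 comparisons without a call. The alternatives were the replicate block, other uses of the technical repeats, no variance trend, a filter on the lowest 40% of genes, further normalization, centring, averaged probe sets (which cannot change an Id value, since each Id gene has 1 probe set), 2-group models and each replicate left out. The exceptions were Id1 under miR-22, Id1 under miR-1 and Id2 under miR-365. For Id1 under miR-22 the difference became a call with the replicate block (0.33), without technical repeats of the control (0.36), with technical pairs as a random block (0.33), with the filter (0.33) and with only the 2 groups in the model (0.33). With single replicates left out it ranged from 0.24 to 0.40, Id1 under miR-1 from −0.47 to −0.35 and Id2 under miR-365 from 0.22 to 0.28. Myotube differences kept their direction under both other normalizations.

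Counts of genes called over the whole array moved more. Pairing by the replicate block raised them from 2058 to 3142 for miR-29a, from 1365 to 2444 for miR-145 and from 2177 to 3298 for Let-7b. With only miR-145 and the control in the model, 654 genes were called. Leaving out replicates gave 1482 to 2012 for miR-34a (2330 with all), 1681 to 2670 for miR-22 (2888), 1330 to 2084 for miR-29a, 727 to 1410 for miR-145 and 1379 to 1932 for Let-7b; the smaller number of samples lowers such counts. Of 199 calls in the pathway lists, 95 were kept in every alternative and 0 reversed. Cause of the other changes was not tested. Dim probe sets such as that of Id4 limit what can be seen of small changes.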
